A study of Mus musculus with 6 samples.

Results

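Platelet-derived growth factors (PDGF) and their receptors were examined in immortalized cardiosphere-derived cells (iCDCs) of the C57BL/6 mouse. The members were the 7 genes named Pdgfa, Pdgfb, Pdgfc, Pdgfd, Pdgfra, Pdgfrb and Pdgfrl, taken by name from the 54532 genes of the deposited table. They comprise 4 ligands and 3 receptor genes, and all 7 had enough reads to be tested. RNA was sequenced from 3 control libraries and 3 induced libraries. Both groups came from the same line at passage 30, which carries human telomerase under the CMV promoter. The labels place the line in heart ventricle, and the methods derive it from explants of ventricular epicardium. Control cells were labelled only as iCDCs of that passage, and the same treatment text stands on the labels of all 6 libraries. By that text, induced cells were exposed to 10 µM 5-azacytidine (5-aza), an inhibitor of DNA methylation, for 3 days and were then kept for 4 weeks in IMDM with 2% serum. The methods of the study give another basal medium and a shorter second phase for this induction. Since no group had the later culture without the drug, the effects of drug, serum and time cannot be told apart. The labels speak of separate samples but not of separate cultures, so p-values measure the spread between these samples, which may be technical.

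PDGF ligands are secreted as dimers that bring receptor tyrosine kinases together at the cell surface. PDGF-A and PDGF-C bind the alpha receptor, PDGF-D binds mainly the beta receptor, and PDGF-B binds both. The alpha receptor marks cardiac fibroblasts and mesenchyme that leaves the epicardium, while the beta receptor marks pericytes and smooth muscle cells around vessels. Pdgfrl encodes a secreted protein that resembles the outer part of a receptor and lacks a kinase.

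Total counts lay between 19041133 and 19823369 reads per library. Of 14246 genes tested, 64.8% were past an adjusted p of 0.05 in the comparison of induced with control cells, 32.6% higher and 32.2% lower in induced cells. The median log2 fold change over all genes tested was -0.01. Because so many genes passed, a call on its own sets a gene apart from few others, and sizes are given throughout. Levels of 1 gene across libraries are read counts divided by library size and scaled by the trimmed mean of M-values (CPM). Levels of different genes are compared by the deposited FPKM values, which also divide by gene length.

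Of the 7 members, 3 were higher in induced cells (Pdgfc, Pdgfd and Pdgfrl), 2 were lower (Pdgfra and Pdgfrb) and 2 did not pass the test (Pdgfa and Pdgfb). The 5 calls among 7 members stand beside the 64.8% found among all genes tested. The CPM values of the groups did not overlap for 6 members, Pdgfb being the exception, beside 68.6% of all genes tested. Pdgfd had the largest fold change of the family, and 93.1% of the genes tested changed less than it. Both receptors with a kinase fell, and of the 4 ligands 2 rose.

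**Figure D1:**
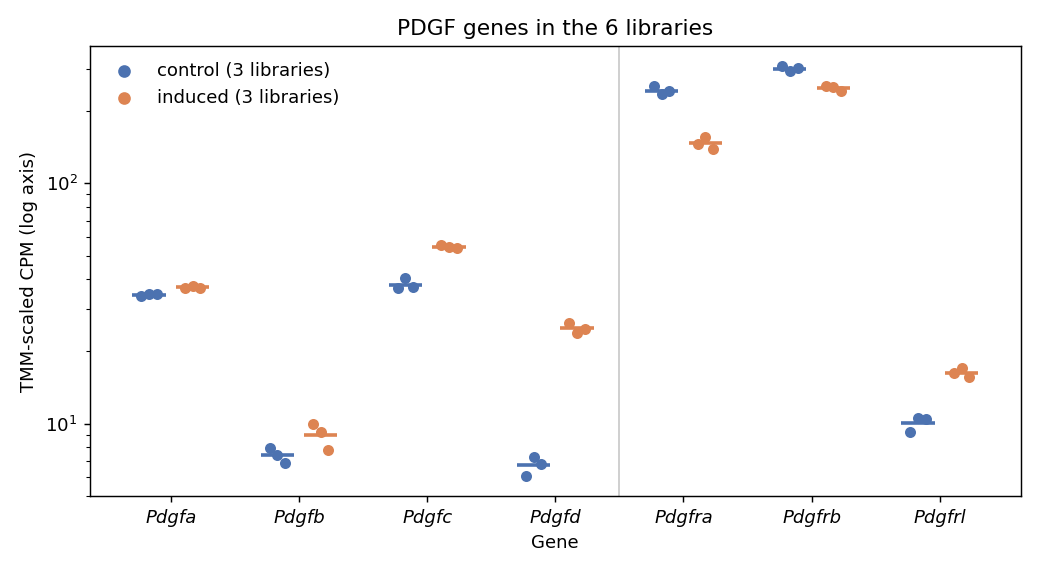
TMM-scaled CPM on a log axis for each PDGF gene, with 1 point per library (3 control, 3 induced) and a bar at the group mean. Pdgfd lay between 6.08 and 7.29 CPM in control cells and between 23.8 and 26.1 CPM in induced cells, whereas the groups of Pdgfb overlapped.

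Pdgfd (ENSMUSG00000032006, chromosome 9, 6168584 to 6378850, plus strand) encodes a ligand that is secreted with a CUB domain and becomes active once that domain is cut off outside the cell. Its read counts were 120, 143 and 136 in control libraries 1 to 3 and 492, 453 and 475 in induced libraries 1 to 3. Each induced library thus held more than 3 times the reads of any control library. The level rose from 6.73 ± 0.608 to 25.0 ± 1.2 CPM (SD, n = 3), a 3.71-fold rise (edgeR log2 fold change 1.89 ± 0.10 SE, adjusted p 5.67e-12). In FPKM terms, Pdgfd moved from the 31.4th to the 60.7th percentile of the genes tested. None of its exon bases overlapped another annotated gene.

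Pdgfc (ENSMUSG00000028019, chromosome 3, 81036416 to 81214040, plus strand) encodes the other ligand with a CUB domain, which acts on the alpha receptor. Control and induced libraries separated, with 722, 791 and 737 reads in the former and 1048, 1032 and 1028 in the latter. The level rose from 37.9 ± 2.06 to 54.6 ± 0.955 CPM (SD, n = 3), a 1.44-fold rise (edgeR log2 fold change 0.53 ± 0.06 SE, adjusted p 2.01e-07). An annotated gene on the opposite strand overlapped 2.89% of its exon bases and had 0 reads in all 6 libraries. Of the genes tested, 63.4% changed less than Pdgfc.

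Pdgfa (ENSMUSG00000025856, chromosome 5, 138976014 to 138997370, minus strand) encodes a ligand that is cleaved by proprotein convertases before secretion and binds the alpha receptor. Its read counts were 672, 681 and 693 in control libraries and 690, 711 and 704 in induced libraries. The CPM values did not overlap, at 34.1 to 34.7 in control and 36.7 to 37.4 in induced cells. The mean difference of 7.24% was not past the threshold (log2 fold change 0.10, 95% interval -0.02 to 0.23, edgeR adjusted p 0.148). With limma on log2 FPKM it passed, at an adjusted p of 0.0480 with a pseudocount of 1, whereas an offset for gene length, chosen after seeing the data, left a log2 fold change of 0.01 (adjusted p 0.935). The antisense gene 6330403L08Rik overlapped 26.1% of the exon bases of Pdgfa and went from 708 to 1105 reads over 3 libraries, and if the counting ignored strand, which is not stated, reads from the shared bases could not be assigned to one gene.

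Pdgfb (ENSMUSG00000000489, chromosome 15, 79995874 to 80014977, minus strand) encodes the ligand that binds both receptors. Its read counts were 157, 145 and 137 in control libraries and 188, 175 and 148 in induced libraries. In CPM, induced library 3 (7.76) lay below control library 1 (7.96), and the other induced libraries lay above all control libraries. The levels were 7.40 ± 0.547 and 8.98 ± 1.13 CPM (SD, n = 3), and the difference was not past the threshold (log2 fold change 0.28, 95% interval 0.01 to 0.55, edgeR adjusted p 0.0640). Without induced replicate 3 the log2 fold change was 0.38 with an adjusted p of 0.0206, and over all alternatives its adjusted p ranged from 0.0206 to 0.231. Chromosome 15, on which Pdgfb lies, had a median log2 fold change of -0.24 over 561 genes tested.

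Pdgfra (ENSMUSG00000029231, chromosome 5, 75152292 to 75198215, plus strand) encodes the alpha receptor. The gene was counted at 5007, 4600 and 4828 reads in control libraries and 2742, 2953 and 2660 in induced libraries, so the highest induced library was far under the lowest control library. The level fell from 243 ± 9.74 to 147 ± 8.01 CPM (SD, n = 3), and it fell by 39.7% by the fitted fold change (edgeR log2 fold change -0.73 ± 0.05 SE, adjusted p 7.20e-10). Annotated genes overlapped 6.50% of its exon bases and had at most 4 reads in a group.

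Pdgfrb (ENSMUSG00000024620, chromosome 18, 61045150 to 61085061, plus strand) encodes the beta receptor and was the most abundant member by FPKM. Its read counts were 6053, 5737 and 6002 in control libraries and 4762, 4802 and 4628 in induced libraries. The level fell from 299.9 ± 7.21 to 249 ± 5.94 CPM (SD, n = 3), and the fitted level fell by 16.8% (edgeR log2 fold change -0.27 ± 0.05 SE, adjusted p 4.89e-05). The groups did not overlap, but only 38.9% of the genes tested changed less than Pdgfrb. By FPKM it stayed among the more abundant genes, at the 93.5th percentile in control and the 91.6th in induced cells.

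Pdgfrl (ENSMUSG00000031595, chromosome 8, 40926212 to 40990785, plus strand) moved against both kinase receptors. It was counted at 183, 207 and 210 reads in control libraries and 305, 323 and 298 in induced libraries. The level rose from 10.1 ± 0.728 to 16.3 ± 0.688 CPM (SD, n = 3), a 1.61-fold rise (edgeR log2 fold change 0.69 ± 0.10 SE, adjusted p 5.95e-06). Its exon bases overlapped no other annotated gene, and its neighbour Mtus1 on the opposite strand ends 129 bases beyond the end of Pdgfrl.

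**Figure D2:**
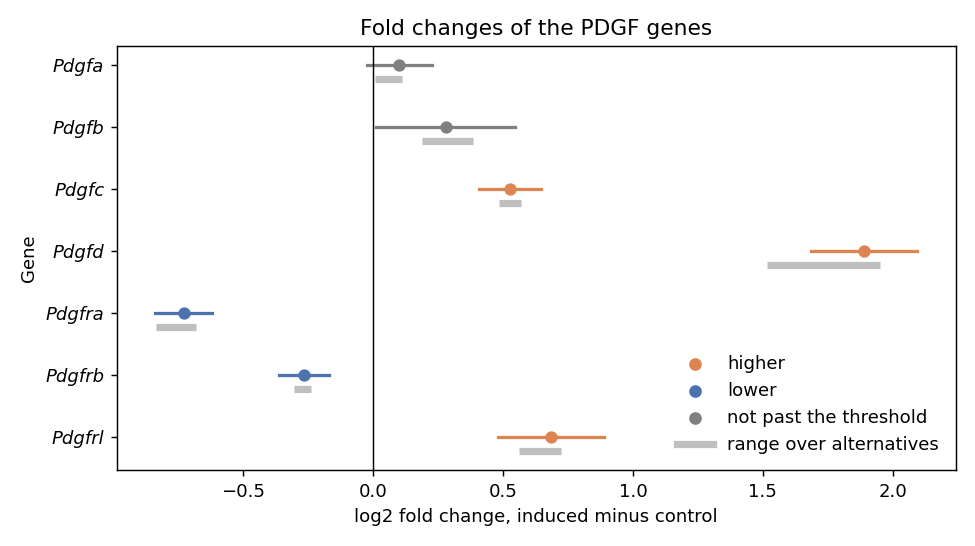
Log2 fold change of each PDGF gene, induced minus control, as a point with its 95% interval (edgeR). The grey bar under each point spans its values under the alternative settings. Pdgfd stood at 1.89 and Pdgfra at -0.73, and the interval of Pdgfa included 0.

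The members were then set side by side by FPKM, a level per length of the summed exons of a gene. In control cells the order of the FPKM levels was Pdgfrb (54.2 ± 1.38), Pdgfra (24.0 ± 0.985), Pdgfa (10.95 ± 0.121), Pdgfc (7.38 ± 0.387), Pdgfrl (3.20 ± 0.230), Pdgfd (2.11 ± 0.189) and Pdgfb (1.76 ± 0.129; SD, n = 3). In induced cells the FPKM levels were 45.5 ± 1.06 for Pdgfrb, 14.6 ± 0.778 for Pdgfra, 11.8 ± 0.101 for Pdgfa, 10.7 ± 0.194 for Pdgfc, 7.90 ± 0.378 for Pdgfd, 5.20 ± 0.213 for Pdgfrl and 2.16 ± 0.272 for Pdgfb (SD, n = 3). In both groups the ranges over libraries of neighbours in this order did not overlap. The order changed at only 1 place, where Pdgfd passed Pdgfrl. Gene length here covers the exons of every annotated isoform, 10024 bases for Pdgfra and 5478 for Pdgfrb, so an FPKM level depends on which exons the cells use.

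The make-up of the ligand pool was compared as the share of each ligand in the summed FPKM of all 4. The share of Pdgfd was 8.78%, 9.99% and 9.73% in control libraries and 24.8%, 23.3% and 24.5% in induced libraries. The share of Pdgfa moved the other way, from 49.3 ± 1.09% to 36.3 ± 0.968%, and that of Pdgfb from 7.94 ± 0.680% to 6.60 ± 0.724% (SD, n = 3). For these 3 ligands the groups did not overlap, and the exact two-sided permutation test gave p = 0.1 (0.133 adjusted over the 4 ligands), the smallest that 3 libraries against 3 allow. The share of Pdgfc was 33.2 ± 0.877% in control and 32.9 ± 0.0734% in induced cells (exact permutation p = 1). The FPKM ratio of Pdgfa to Pdgfd was 5.21 ± 0.427 in control cells and 1.501 ± 0.0845 in induced cells.

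Pdgfa and Pdgfc, ligands of the alpha receptor, together stood at 17.9 to 18.8 FPKM in control libraries and at 22.4 to 22.7 in induced libraries. Pdgfb and Pdgfd, the ligands that bind the beta receptor, together stood at 3.78 to 4.04 FPKM in control libraries and at 9.73 to 10.7 in induced libraries. The sum of all 4 ligands was 22.2 ± 0.583 FPKM in control and 32.6 ± 0.665 FPKM in induced cells, and that of both kinase receptors was 78.3 ± 2.35 and 60.1 ± 1.72 FPKM (SD, n = 3). For every 100 FPKM of receptor there were 28.4 ± 1.60 FPKM of ligand in control cells and 54.3 ± 1.45 in induced cells. These sums count RNA, and no test was made of them.

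Since both kinase receptors fell, their falls were compared directly through the share of Pdgfra in their summed FPKM. This share was 31.1%, 30.5% and 30.5% in control libraries and 23.9%, 25.2% and 23.9% in induced libraries. The groups did not overlap, and the share of Pdgfra differed by -6.38 percentage points (exact two-sided permutation test, p = 0.1, the smallest possible). The FPKM of Pdgfrb was 2.26 ± 0.0385 times that of Pdgfra in control cells and 3.11 ± 0.118 times in induced cells.

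**Figure D3:**
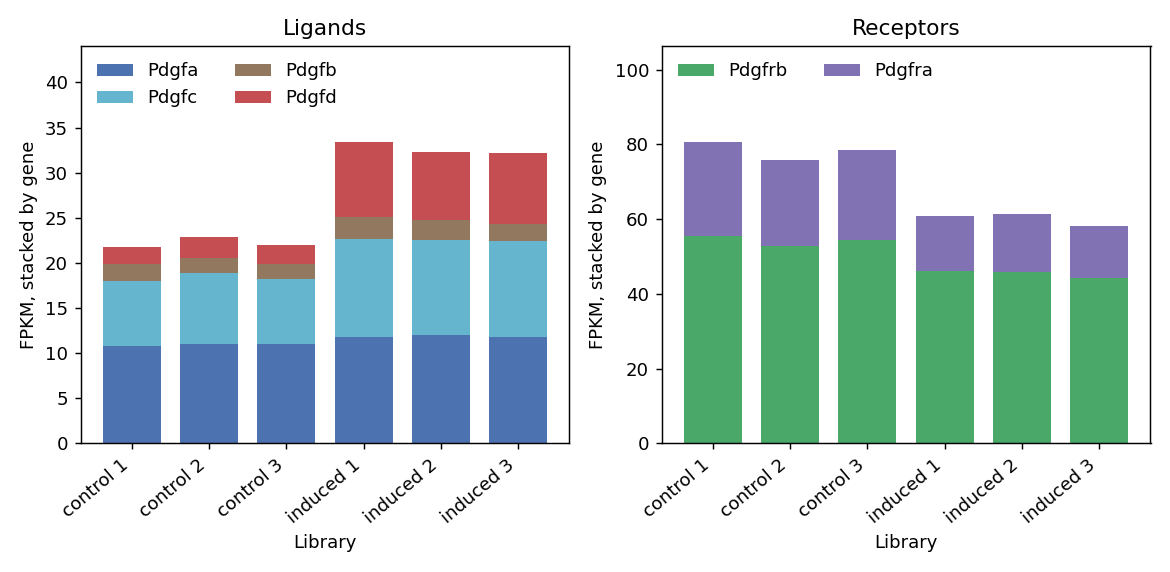
Deposited FPKM of the 4 ligands (left) and of both kinase receptors (right), stacked by gene in each of the 6 libraries, with axes from 0. The ligand stacks reach 21.7 to 22.9 in control and 32.1 to 33.4 in induced libraries, and the receptor stacks 75.9 to 80.6 and 58.1 to 61.4.

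In these bulk samples, fewer cells of a type and less RNA per cell cannot be told apart. Markers of cell types that carry PDGF receptors were therefore read in the same libraries. Their counts stand beside 32.6% higher and 32.2% lower among all genes tested. Of 10 fibroblast markers, 9 were tested, with 6 higher and 2 lower, and their summed level was 15727 to 16399 CPM in control and 17645 to 18882 CPM in induced libraries. Col1a1 and Col1a2 made up most of this sum, with log2 fold changes of -0.36 and 0.33. Among those named after their values were seen, the proteoglycans Dcn and Lum rose by 2.19 and 4.37 on the log2 scale while Pdgfra fell. The 2 that were lower were Col1a1 and Mfap5 (-1.47). Of 10 pericyte markers, all 5 that were tested were lower, among them Notch3 (-1.34) and the potassium channel subunit Kcnj8 (-2.69). Their summed level was 86.7 to 95.5 CPM in control and 35.0 to 37.9 CPM in induced libraries. The 5 pericyte markers that were not tested each had more induced than control reads. Rgs5 was covered by 2 control and 8 induced reads, and Cspg4 by 5 and 26. Cox4i2 had 2 and 17, Vtn 0 and 3, and Higd1b 0 and 1. The part of these markers in the falls of Pdgfra and Pdgfrb was not tested.

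Cell types that secrete PDGF, and cardiomyocytes, were read in the same way, beside the same 32.6% higher and 32.2% lower among all genes tested. Of 10 endothelial markers, 2 were tested and 1 was higher, Egfl7, which made up most of the summed level and went from 8.63 ± 0.564 to 11.1 ± 0.453 CPM (SD, n = 3), a log2 difference of 0.37 with an edgeR adjusted p of 0.00635. Tek and Esam each had 7 control and 32 induced reads, and Pecam1 had 3 and 6. Cldn5 and Tie1 had 0 reads, and Cdh5 had 1 in each group. Vwf, the other marker tested, went from 78 to 58 reads and did not pass the test. Kdr went from 11 to 5 reads and Emcn from 1 to 0. The summed endothelial level was 9.82 to 11.4 CPM in control and 13.2 to 13.8 CPM in induced libraries. Of 8 platelet and megakaryocyte markers, 3 had 0 reads in all libraries, and Itga2b and Pf4, the only members tested, were both lower. Of 10 leukocyte markers, 3 were tested, with Cd68 and Lyz2 higher and Coro1a not past the threshold. Ptprc, Cd52, Tyrobp, Itgam and Cd3e had 0 reads, Laptm5 had 7 control and 0 induced reads, and Cd79a had 16 and 18. The summed leukocyte level, mostly Cd68 and Lyz2, was 5.37 to 7.59 CPM in control and 41.6 to 49.2 CPM in induced libraries. The summed level of these platelet markers, mostly Itga2b, was 15.4 to 16.1 CPM in control and 6.31 to 7.71 CPM in induced libraries. Of 10 cardiomyocyte markers, 3 were tested and 2 were higher, Tnnt2 (log2 fold change 2.15) and Myl7 (0 control and 74 induced reads). Tnni3, also tested, did not pass the threshold (90 control and 115 induced reads). The myosin heavy chain genes Myh6 and Myh7 had at most 4 reads in a group. Actc1 had 6 control and 4 induced reads, and Myl2 had 2 and 0. Ryr2 had 1 and 29, Ttn 8 and 15, and Nppa 0 and 4. The summed cardiomyocyte level, mostly Tnnt2, was 13.4 to 16.2 CPM in control and 60.4 to 63.9 CPM in induced libraries. The part of these markers in the rise of Pdgfd was not tested.

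The regions around the start sites of the members are shown next, because 5-aza acts on methylation of cytosine in CG dinucleotides. RefSeq (GRCm38.p6) windows from 250 bases before to 50 bases after the start are shown for 4 of the 7 members, with 2 starts for Pdgfa. The start regions of the other members were not examined. Methylation was not measured, and the start sites in use were not measured either. Sequences run 5′ to 3′ on the strand of the gene, and capitals mark each CG. Inner and outer name the 2 Pdgfa windows relative to each other only, as the annotated gene runs on to 138997370.
Pdgfd at chr9:6168236-6168535, plus strand: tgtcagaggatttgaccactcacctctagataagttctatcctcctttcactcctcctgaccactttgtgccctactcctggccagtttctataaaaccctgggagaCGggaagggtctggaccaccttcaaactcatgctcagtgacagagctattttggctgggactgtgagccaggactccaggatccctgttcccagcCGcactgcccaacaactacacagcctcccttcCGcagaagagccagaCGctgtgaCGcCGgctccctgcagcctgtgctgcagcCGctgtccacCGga
Pdgfc at chr3:81036166-81036465, plus strand: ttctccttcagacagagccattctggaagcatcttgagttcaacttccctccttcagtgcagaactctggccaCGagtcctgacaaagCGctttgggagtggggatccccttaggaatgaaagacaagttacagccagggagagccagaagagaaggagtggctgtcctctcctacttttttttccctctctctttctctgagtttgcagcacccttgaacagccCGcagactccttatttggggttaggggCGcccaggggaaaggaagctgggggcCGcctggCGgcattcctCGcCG
Pdgfra at chr5:75152001-75152300, plus strand: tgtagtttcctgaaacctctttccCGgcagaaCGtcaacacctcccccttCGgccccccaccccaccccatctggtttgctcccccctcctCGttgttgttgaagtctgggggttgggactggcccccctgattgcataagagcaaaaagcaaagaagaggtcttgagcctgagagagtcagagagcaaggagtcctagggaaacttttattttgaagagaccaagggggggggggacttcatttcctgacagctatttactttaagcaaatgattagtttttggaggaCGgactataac
Pdgfa, inner start, at chr5:138994232-138994531, minus strand: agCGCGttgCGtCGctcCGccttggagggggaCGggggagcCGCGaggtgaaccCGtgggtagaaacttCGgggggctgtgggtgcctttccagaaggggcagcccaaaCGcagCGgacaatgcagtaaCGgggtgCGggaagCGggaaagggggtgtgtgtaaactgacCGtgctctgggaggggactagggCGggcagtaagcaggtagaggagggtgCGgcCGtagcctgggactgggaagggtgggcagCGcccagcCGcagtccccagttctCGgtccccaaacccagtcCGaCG
Pdgfa, outer start, at chr5:138994895-138995194, minus strand: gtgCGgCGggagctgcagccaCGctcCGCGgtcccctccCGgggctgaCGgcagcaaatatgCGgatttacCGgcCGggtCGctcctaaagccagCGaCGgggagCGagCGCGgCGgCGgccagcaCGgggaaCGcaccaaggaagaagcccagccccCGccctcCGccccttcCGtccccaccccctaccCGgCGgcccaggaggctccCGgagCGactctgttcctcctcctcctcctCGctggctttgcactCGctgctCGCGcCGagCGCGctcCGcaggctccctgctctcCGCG

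Among all 32851 RefSeq windows of this length, 94.6% held at least 1 CG and the median count was 7. The windows of Pdgfd and Pdgfc, both higher in induced cells, held 8 CG each and were alike in G and C content, at 56.7% and 55.0%. The window of Pdgfra, lower in induced cells, held 5 CG. No window of Pdgfrb, the other member that was lower, was examined, so Pdgfra alone stands for the lower members here. The windows of Pdgfa, which did not pass the test, held 24 and 37 CG, more than 80.0% and 94.4% of all windows. The motif GGGCGG, searched on both strands, was found in 35.7% of all windows. It occurred 1 and 2 times in the windows of Pdgfa and in none of those of Pdgfd, Pdgfc and Pdgfra. These counts are a description of 5 windows and were not tested against the fold changes.

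Genes that act on PDGF ligands after translation were examined next. Of 9 genes for ligand processing and activation, 8 were tested, with 3 higher, 2 lower and a median log2 fold change of -0.01, beside 32.6% higher and 32.2% lower among all genes tested. The convertase gene Pcsk5 was covered by 22 control reads and 1196 induced reads, and rose from 0.371 ± 0.0562 to 21.02 ± 0.878 CPM (SD, n = 3), with an edgeR log2 fold change of 5.80 ± 0.17 SE and an adjusted p of 2.06e-15. The convertase gene Pcsk6 rose from 20.02 ± 1.65 to 75.2 ± 3.77 CPM (SD, n = 3). Furin, a convertase of PDGF-A and PDGF-B, was at 162 ± 5.04 and 161 ± 4.95 CPM (SD, n = 3; edgeR adjusted p 0.926). Plat, whose product activates PDGF-C, fell from 170 ± 4.06 to 144 ± 3.51 CPM (log2 fold change -0.23), and Plau, whose product activates PDGF-D, was at 21.7 ± 1.21 and 21.6 ± 0.613 CPM (adjusted p 0.927). Furin, Plat and Plau were named for these roles after their values had been seen.

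Of 10 binding partners and co-receptors, 8 were tested, with 5 higher and 1 lower, beside 32.6% and 32.2% of all genes tested. The list median was 0.32. Sparc, a matrix protein that binds PDGF-B, rose from 3403 ± 25.1 to 6986 ± 194 CPM (SD, n = 3), a log2 difference of 1.04. Thbs1, a matrix protein of platelets and mesenchymal cells, was the 1 that fell, from 4584 ± 165 to 1609 ± 81.3 CPM (SD, n = 3), a log2 difference of -1.51. Nrp2, a co-receptor of secreted growth factors, rose by 1.24 on the log2 scale.

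Of 21 adaptors and effectors of the receptors, all were tested, with 9 higher, 3 lower and 9 not past the threshold. The shares among all genes tested were 32.6% higher and 32.2% lower, and the list median was 0.12. Slc9a3r1, a scaffold that binds the tails of PDGF receptors, rose from 354 ± 5.46 to 819 ± 54.1 CPM (SD, n = 3), a log2 difference of 1.21. Pik3cb, a catalytic subunit of phosphoinositide 3-kinase, rose from 12.9 ± 1.30 to 39.6 ± 2.19 CPM (SD, n = 3), a log2 difference of 1.62. The docking protein gene Gab2 rose by 0.67 on the log2 scale. The number called in this list, 12 with all libraries, lay between 9 and 15 when 1 library was left out.

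Of 9 receptor attenuators, 1 was higher and 4 were lower, with a median of -0.24, beside 32.6% and 32.2% of all genes tested. The 1 that rose was Ptprj, a receptor-type phosphatase that acts on the beta receptor, from 13.4 ± 0.897 to 44.9 ± 1.55 CPM (SD, n = 3), a log2 difference of 1.74. Socs3, a feedback inhibitor of cytokine signalling, fell from 175 ± 6.00 to 80.5 ± 3.02 CPM (SD, n = 3), and the ubiquitin ligase gene Cblb had a log2 fold change of -0.75. Of 8 feedback inhibitors of the ERK pathway, 3 were higher and 4 lower, beside the same shares of all genes tested. Their median was -0.18. The phosphatase genes Dusp4 and Dusp5 had log2 fold changes of -1.22 and -1.48, whereas Spry1 rose by 0.93.

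Of 12 genes of the early response to growth factors, 8 were lower and 2 higher, beside 32.2% and 32.6% of all genes tested. Their median log2 fold change was -0.91, beside -0.01 for all genes tested. Myc fell from 87.4 ± 2.52 to 27.9 ± 1.34 CPM (SD, n = 3), a log2 difference of -1.65 with an edgeR adjusted p of 2.17e-14. Fosl1, a subunit of the transcription factor AP-1, fell from 41.0 ± 3.20 to 9.10 ± 0.610 CPM (SD, n = 3), a log2 difference of -2.17. The chemokine gene Ccl2, first cloned as a gene induced by PDGF, fell from 125 ± 4.41 to 49.5 ± 3.76 CPM (SD, n = 3), a log2 difference of -1.33. The 2 that rose were Fos (log2 fold change 0.75) and Odc1 (0.28), named after their values had been seen. Serum contains PDGF among other factors that induce these genes, and by the methods the line was grown in a medium with more serum than the induction medium. The labels do not give the medium of the control cells at harvest, and serum and drug cannot be told apart in these falls.

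Kit, Csf1r and Flt3 encode the other receptors of the same class, and Kitl, Csf1, Il34 and Flt3l encode their ligands. Of these 7 genes, 5 were tested, with 2 higher and 3 lower, beside 32.6% and 32.2% of all genes tested. Their median was -0.73. Csf1r fell from 22.6 ± 1.05 to 10.9 ± 0.673 CPM (SD, n = 3), a log2 difference of -1.05. Its ligand gene Csf1 rose from 983 ± 5.79 to 1299 ± 15.8 CPM (SD, n = 3), a log2 difference of 0.40, and Kitl rose by 0.37. Il34, the other ligand gene of Csf1r, had a log2 fold change of -1.53, and Flt3l of -0.73 (edgeR adjusted p 0.0192). Kit was covered by 18 control and 24 induced reads, and Flt3 had 0 reads in all libraries, which allows up to 0.150 to 0.159 CPM per library at 3 counts.

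**Figure D4:**
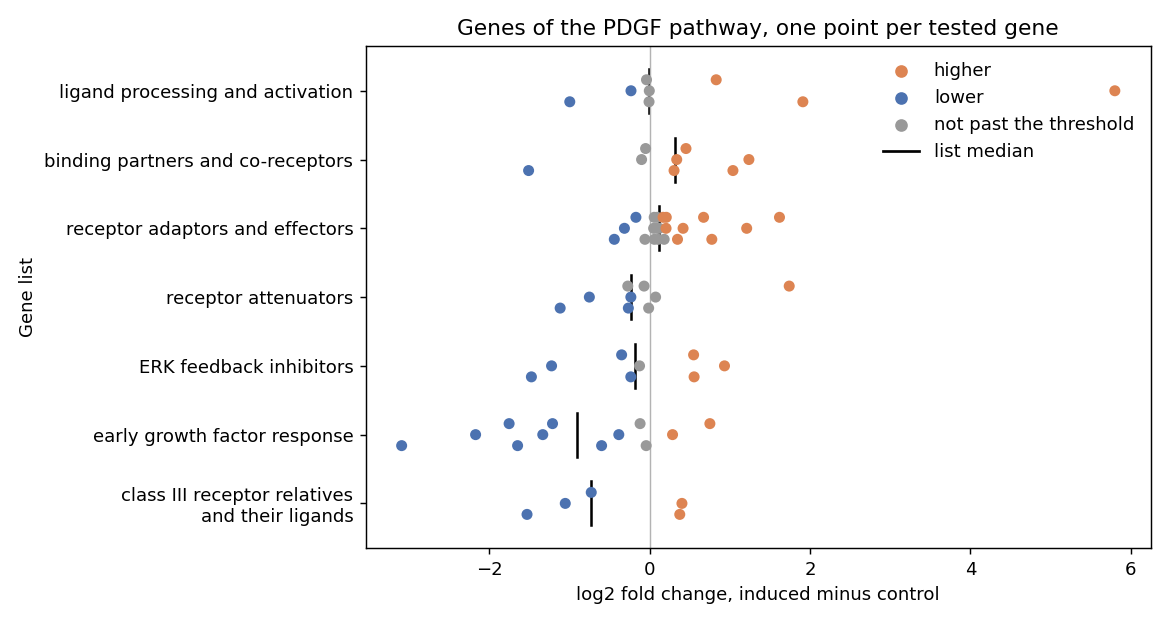
Log2 fold change, induced minus control, of each tested gene in 7 lists of the PDGF pathway and its relatives. Points are genes coloured by call, and black bars are list medians, which run from -0.91 for the early growth factor response to 0.32 for binding partners. The point at 5.80 is Pcsk5.

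The nearest tested gene on either side of each member was read to see whether neighbours moved together. Of 14 such neighbours, 7 were higher, 6 lower and 1 not past the threshold, beside 32.6% higher and 32.2% lower among all genes tested. Csf1r lies 20.5 kb beyond Pdgfrb on the same strand of chromosome 18, and Camk2a, encoding a calcium-dependent kinase, lies 57.0 kb before it; all 3 fell, with log2 fold changes of -1.05 for Csf1r and -2.37 for Camk2a. The neighbours of Pdgfra, Chic2 and Srd5a3, had log2 fold changes of 0.37 and 0.17, against -0.73 for Pdgfra. The neighbours of Pdgfd, Casp12 and Dync2h1, lay 796 kb and 550 kb away with log2 fold changes of -0.61 and -0.24, against 1.89 for Pdgfd. The calls of Srd5a3 and Dync2h1 were lost under several alternatives, with adjusted p up to 0.116 and 0.199.

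Beside Pdgfrl, Slc7a2 had a log2 fold change of -0.30 and Mtus1 of 1.06. Beside Pdgfb on chromosome 15, the polycomb gene Cbx7 had a log2 fold change of 1.00 and the ribosomal protein gene Rpl3 of -0.79. Beside Pdgfa, Fam20c and the overlapping 6330403L08Rik had log2 fold changes of 0.44 and 0.70. Beside Pdgfc, Ctso had a log2 fold change of 0.63, and Glrb did not pass the test (-0.36, edgeR adjusted p 0.358).

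The genes most like each receptor in pattern were found by the root-mean-square difference of centred log2 CPM over the 6 libraries. For Pdgfra these were Sesn3 (0.018), Inhba (0.029) and Tmem131l (0.029), with log2 fold changes of -0.72, -0.69 and -0.72. For Pdgfrb they were Aldh18a1 (0.015), Sec61a1 (0.020) and Kdm4a (0.022), with log2 fold changes of -0.26, -0.25 and -0.29. A fold change close to that of the receptor follows from this choice.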

How the data were processed

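RNA sequencing covered 3 control and 3 induced libraries. The authors deposited 1 table with raw read counts per Ensembl gene and FPKM values, in which counts are divided by gene length and by depth. Submitters' processing notes name HISAT2 2.0.5, featureCounts 1.5.0-p3, DESeq2 1.16.1 and mm10; the strand setting is not given in the sources used here, so antisense overlaps are marked. Of 54409 genes shared with GENCODE M21 (GRCm38), 98.3% had its coordinates. The authors' fold changes, p-values and enrichment tables were not used.

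The counts went into edgeR 4.0.16 (R 4.3.3), with filterByExpr (minimum count 10, minimum total 15), TMM scaling and a two-sided quasi-likelihood test, whose p-values were adjusted by Benjamini-Hochberg over 14246 genes and called at 0.05. The F statistic and the fold change gave the standard error. Shares used exact permutation tests (SciPy 1.17.1). Every pair of libraries in a group differed beyond sampling noise (2.56 to 8.91 as chi-square over its degrees of freedom) and was kept apart. Limits for a count of 0 use 3 counts and cover counting error only. Alternatives were DESeq2 1.42.0, limma 3.58.1 on log2(FPKM + 1) and log2(FPKM + 0.1), other size factors and filters, a threshold of 0.01, a replicate block and the omission of each library in turn; a gene length offset (loess, span 0.4) was added after seeing the data. The edgeR test was checked on simulated counts in which only a small share of the genes was changed. Scaling where as many genes differ as here was not checked by it.

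Members and lists were chosen with earlier results of these data known. Named genes are the members, up to 3 genes per pathway list with the smallest p, the nearest tested gene on either side of each member, and the 3 genes most like Pdgfra and Pdgfrb in pattern (log2 of CPM + 0.1). A result that this rule chose is not reported here.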

Additional observations from a re-analysis of the deposited data

How the results depend on the processing

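Of 112 values of the 7 members under alternatives, 109 kept their direction and side of the threshold, 3 came past it and 0 reversed. The 3 were Pdgfa under limma on log2(FPKM + 1) and log2(FPKM + 0.1), and Pdgfb without induced replicate 3. The gene length offset, chosen after seeing the data, gave 5 members called and a log2 fold change of 0.01 for Pdgfa. Of 600 values of 40 other genes chosen by the naming rule, 14 lost the call, all for Dync2h1 and Srd5a3. The number of members called lay between 5 and 6 when 1 library was left out. Over all genes tested it was 9225, and 7783 to 9765 under the alternatives. Scaling by library totals shifted the fold changes by -0.04 (log2) at the median.

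With raw counts without gene length, the shares moved by more than the spread between replicates: the difference between induced and control was -10.4 percentage points for Pdgfa (-13.0 with FPKM), 12.1 for Pdgfd (14.7 with FPKM) and -7.74 for Pdgfra among the kinase receptors (-6.38 with FPKM). This follows from leaving out length. Leaving out 1 library gave 14.4 to 15.2 for Pdgfd.

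Same-numbered libraries did not deviate together (correlations across genes -0.03, -0.03 and 0.03), so the numbers were not taken as pairs. With the replicate block 9063 genes and 5 members were called, and an exact sign-flip test of the paired share differences gave p = 0.25 for Pdgfd, the smallest that 3 pairs allow. Members with the fewest reads, Pdgfb and Pdgfd in control cells, have the widest counting error, and genes under about 10 reads in 3 libraries were not tested.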
